A study of Mus musculus with 6 samples.

Results

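The genes described here encode 45 enzymes and core subunits that write, remove or maintain DNA methylation and histone marks. They were taken by gene symbol from a named list, and each of the 45 symbols matched 1 of the 24376 Ensembl gene IDs in the deposited tables. All 45 passed the filter on low counts, which left 12670 genes for testing. RNA was sequenced from blood progenitors of C57BL/6 mouse fetal liver at E14.5 (E for embryonic day). The control group (3 libraries) received a retrovirus with a control short hairpin RNA (shRNA), and the shSamd14 group (3 libraries) one with an shRNA against Samd14, which lowers that gene's transcripts. Both groups were infected right after isolation, grown for 3 days and sorted as 200000 cells without the surface proteins CD71 and Ter119. The control hairpin's target is not given in the sources used here. Nor do they tell if each library stands for its own animal or culture, so a p-value here measures only the spread between these libraries, which may be technical.

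DNA methylation is written by the Dnmt enzymes, copied after replication by Dnmt1 with the help of Uhrf1, and oxidised by the Tet enzymes as a step towards its removal. Polycomb complexes place repressive methyl and ubiquitin marks on histones, Kmt2 and Setd1 enzymes place methyl marks at active promoters and enhancers, and Kdm enzymes remove such marks. Acetyltransferases such as Ep300 and deacetylases such as Hdac1 set histone acetylation. In the blood system Dnmt3a, Tet2, Asxl1, Kmt2a and Ezh2 are known regulators of stem and progenitor cells.

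The libraries held 20584169 to 26462797 estimated counts, and levels within a gene are given as counts scaled to library size (CPM), of which 3 counts equalled 0.113 to 0.146. Samd14, at chr11:95009879-95026087 in mm10, had 82.0, 82.1 and 83.8 CPM in the control and 41.9, 38.8 and 39.4 CPM with shSamd14. The marker lists described a mixed progenitor population. The 7 progenitor markers summed to 1111 to 1274 CPM with the control hairpin and 1067 to 1102 CPM with shSamd14. The 2 ranges did not overlap, although 0 of the 7 genes passed in edgeR. Kit, the highest of them, had 656.5, 559.8 and 495 CPM against 474, 465 and 422 CPM (edgeR quasi-likelihood, adjusted p 0.0943). The other progenitor markers did not move in one direction. Control and shSamd14 means were 71.5 and 85.1 CPM for Gata2, whose groups did not overlap, 356 and 370 for Myb, and 27.4 and 33.9 for Cd33. They were 77.5 and 69.5 CPM for Ptprc, 26.5 and 21.8 for Flt3, and 52.3 and 52.1 for Cd34. The groups did not overlap for Flt3 and Kit either, both of them lower in shSamd14. The 6 neutrophil markers summed to 2407 to 3769 and 2543 to 3910 CPM, and the 8 erythroid genes, which include the transcripts for CD71 and glycophorin A, to 2182 to 2892 and 2875 to 3334 CPM. All 4 lymphocyte markers stayed under 1 CPM in every library. The 6 megakaryocyte markers did not overlap between groups (224 to 253 CPM against 295 to 305 CPM), and 2 of them passed the test. The 8 cell cycle genes summed to 3831 to 4156 and 3853 to 3999 CPM, with 1 of them, Rrm2, lower in shSamd14. Whether the progenitor or megakaryocyte markers or Rrm2 play a part in the values below was not tested.

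The most abundant of the 45 transcripts were those of the deacetylases Hdac1 and Hdac2, the maintenance methylation pair Uhrf1 and Dnmt1, and the Polycomb subunits Ezh2 and Suz12. Levels between genes were compared in TPM, a library-scaled measure that corrects for transcript length. Hdac1 stood at 179 ± 4.74 TPM in the control libraries (SD, n = 3), Hdac2 at 156 ± 6.98, Uhrf1 at 139 ± 4.31, Dnmt1 at 129 ± 8.81, Ezh2 at 127 ± 6.06 and Suz12 at 123 ± 9.98 TPM. At the other end lay Setd1b at 7.19 ± 0.739, Crebbp at 5.52 ± 0.386 and Tet1 at 3.52 ± 0.66 TPM. The highest and lowest members thus differed 50.8-fold. Of the 14176 genes with a TPM above 0 in all libraries, 31.3% lay under Tet1 and 94.3% under Hdac1, and 33 of the 45 members lay above the median gene (13.5 TPM). The order was coarse. Of the 44 neighbouring pairs in it, 32 had control ranges that overlapped. A ranking by CPM, which favours long transcripts, moved members by up to 19 places and put Dnmt1 first.

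**Figure D1:**
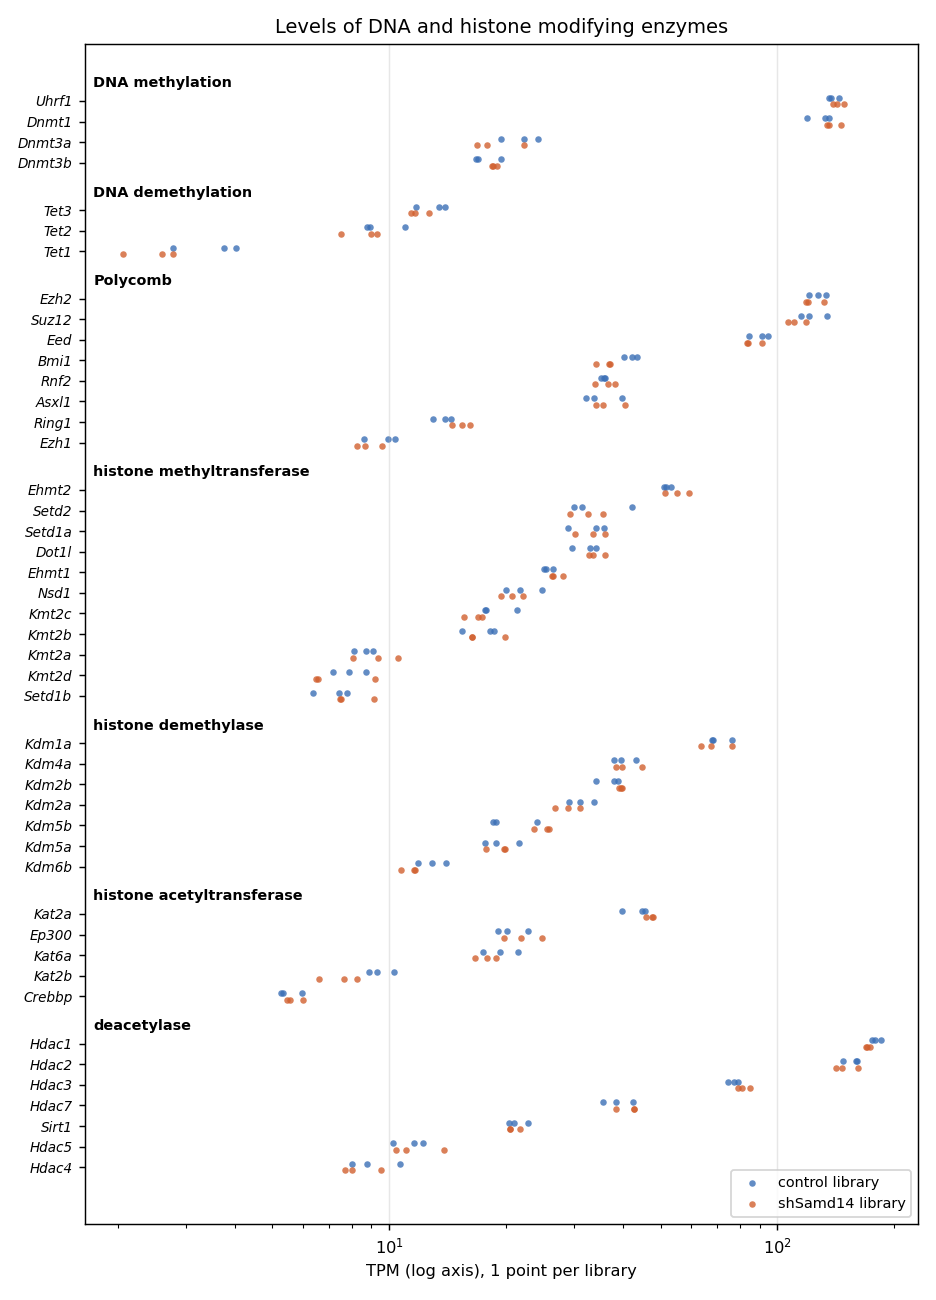
TPM (log axis) of each gene in the 3 control and 3 shSamd14 libraries, 1 point per library, grouped by role and ordered by the control mean. Hdac1, Hdac2, Uhrf1, Dnmt1, Ezh2 and Suz12 lie above 100 TPM and Tet1 lies lowest in both groups; a single library is a point and no error bar is drawn.

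One comparison was made, shSamd14 against control, to ask which of these genes differ when Samd14 is lowered. A single member passed: Tet1 fell in shSamd14, and no member rose. That is 1 of 45, or 2.22%, while 2.58% of the 12670 genes tested lay under an adjusted p of 0.05 (edgeR quasi-likelihood test, Benjamini-Hochberg adjustment over all of them), so the share of members called lay near that of all genes. At an unadjusted p under 0.05 in edgeR, 1 member was higher and 6 were lower, beside 896 higher and 1004 lower of all genes (15%), so this share too lay near that of all genes. DESeq2, run as an alternative, called 1 higher (Kdm5b) and 2 lower (Tet1 and Bmi1), or 6.67% of members, beside 3.58% of the 11608 genes to which it gave an adjusted p (181 higher, 234 lower). The counts by role below are parts of these totals. The groups did not overlap for 6 of 45 members (13.3%), 1 above and 5 below, and for 20.7% of all genes tested. The log2 ratio of shSamd14 to control (log2 fold change) had a median of 0.007 over the members and 0.006 over all genes, with 24 members positive and 21 negative. The median size of the change was 0.08 on the log2 scale for members and 0.077 for the 7365 genes in the same range of control CPM (16.7 to 417.5). In bulk RNA, fewer cells of a type and less RNA per cell cannot be told apart.

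**Figure D2:**
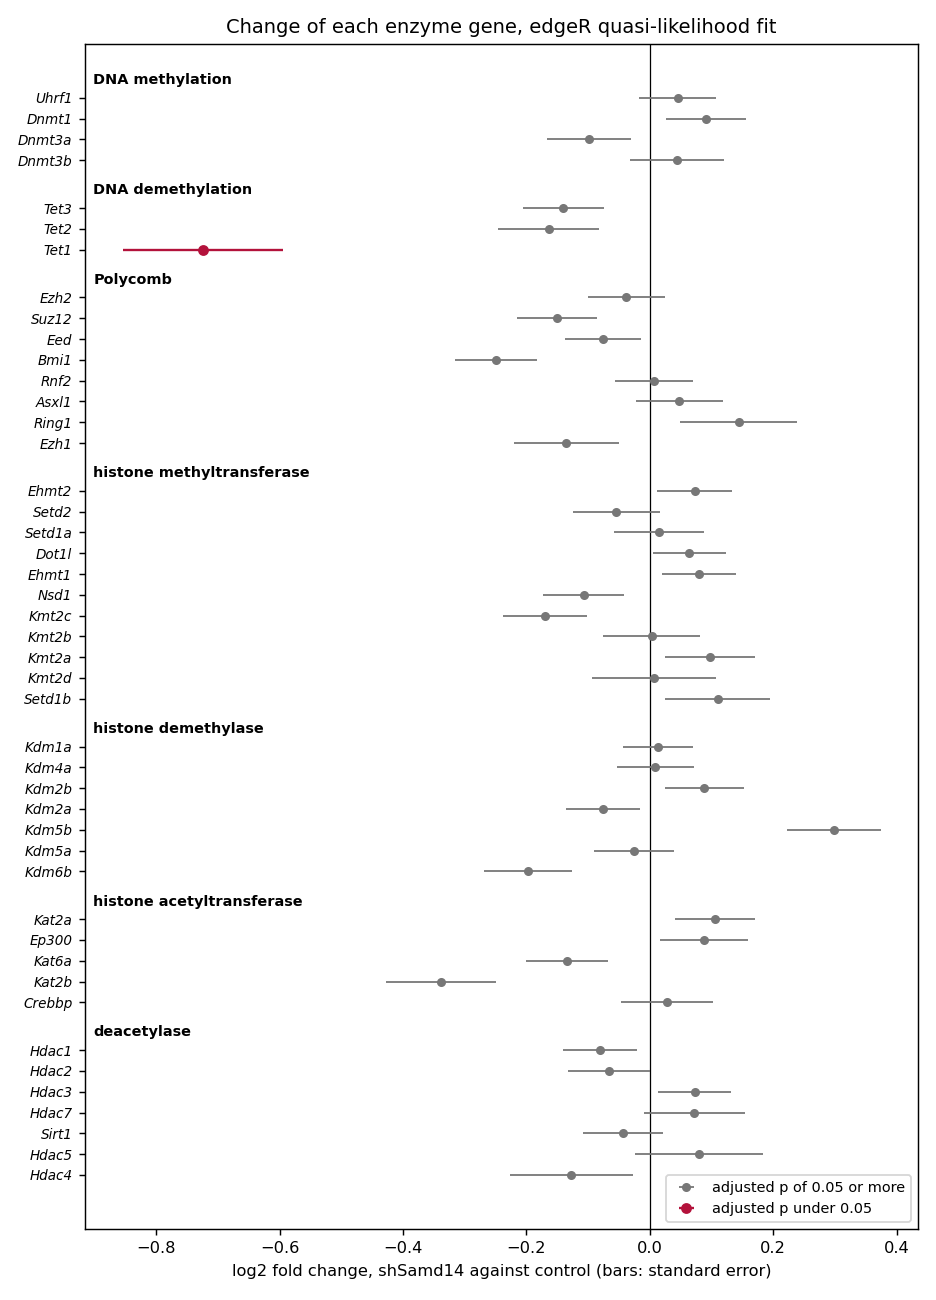
Log2 fold change of each gene in shSamd14 against control (3 libraries each) with its standard error from edgeR's fit; red marks an adjusted p under 0.05. Tet1, at -0.72, is the red point, Kat2b and Bmi1 are the next lowest, and Kdm5b, at 0.30, is the highest.

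Replicates were close for most members. The coefficient of variation of CPM had a median of 5.89% in control libraries and 5.17% in shSamd14 libraries, against 5.45% and 5.26% for all genes in that range of CPM. The least stable member was Tet1 in the control group (18.4%) and Kmt2d in the shSamd14 group (16.2%).

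The DNA methylation enzymes did not pass: 0 of 4 in edgeR, 0 at an unadjusted p under 0.05 and 0 in DESeq2. Dnmt1, the maintenance methyltransferase, had 423, 437 and 392 CPM with the control hairpin and 451, 429 and 454 CPM with shSamd14. The groups overlap, and the log2 ratio came to 0.09 ± 0.065 (SE; edgeR quasi-likelihood, adjusted p 0.564). Uhrf1, which recognises half-methylated DNA and recruits Dnmt1, had the highest TPM of the 4, and 272, 306 and 290.2 CPM with the control hairpin and 306, 289.8 and 299.9 CPM with shSamd14, so that its groups overlap as well. The de novo methyltransferases were lower in level. Dnmt3a had 64.8 ± 2.25 and 60.4 ± 4.23 CPM (SD, n = 3 each). Dnmt3b, the lowest of the 4 in TPM, had 39.1, 41.4 and 47.2 CPM with the control hairpin and 44.7, 43.7 and 43.5 CPM with shSamd14, and its groups overlap. The mean transcript length that RSEM estimated for Dnmt3a varied 1.22-fold between libraries, so its TPM carries that variation while its CPM does not.

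All 3 Tet genes, which encode the enzymes that oxidise methylated cytosine, had lower means in shSamd14, and Tet1 passed. Tet1 (ENSMUSG00000047146, minus strand, chr10:62804570-62908996 in mm10) had 32.4, 28.1 and 22.3 CPM with the control hairpin and 16.1, 18.7 and 15.4 CPM with shSamd14. Every shSamd14 library lay below every control library, with control replicate 3 nearest to them. The means were 27.6 ± 5.07 and 16.7 ± 1.73 CPM (SD, n = 3 each), a ratio of 0.605. On the log2 scale the ratio of shSamd14 to control came to -0.72 ± 0.13 (SE), and edgeR's quasi-likelihood test gave it an adjusted p of 0.0147. Tet2 had 53.3 ± 5.1 and 47.5 ± 4.02 CPM, a log2 ratio of -0.16 ± 0.082 (SE; edgeR quasi-likelihood, adjusted p 0.374), with groups that overlap. Tet3, the highest of the 3 in TPM, had 89.5, 90.8 and 79.2 CPM with the control hairpin and 77.6, 76.7 and 81.1 CPM with shSamd14, a log2 ratio of -0.14 ± 0.066 (SE; edgeR quasi-likelihood, adjusted p 0.343). Here too the groups overlap. Whether Tet1 differs from Tet2 and Tet3 in its change was not tested.

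Leaving out single libraries moved the adjusted p of Tet1 across the threshold, while its log2 ratio stayed between -0.865 and -0.600. In edgeR the adjusted p was 0.0546 without control replicate 2 (log2 ratio -0.71), 0.0675 without shSamd14 replicate 1 (-0.71) and 0.0516 without shSamd14 replicate 3 (-0.67), and 0.00152 to 0.0328 in the other 3 fits of this kind. In DESeq2, with all libraries, the adjusted p was 1.8e-05 (log2 ratio -0.73). In TPM the gap was narrower: 4.04, 3.75 and 2.78 TPM in control and 2.06, 2.77 and 2.6 TPM in shSamd14 libraries, a ratio of means of 0.703. With limma on log2(TPM + 1) the difference was -0.375 on that scale with an adjusted p of 0.252. The estimated transcript length of Tet1 had a lower mean in shSamd14, with ranges that overlap: 13606, 12057 and 12929 bases in the control libraries against 12459, 11152 and 10076 bases in the shSamd14 libraries, the widest spread of the 45 members (1.35-fold). The part of this length in the difference was not tested. Tet1 supplied 13.4 ± 1.38% of the summed Tet TPM in control and 10.8 ± 1.02% in shSamd14 libraries.

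Tet1 also has the longest annotated 3′ untranslated region (UTR) of the members, 7962 bases. It holds both pairs of 7-base words that an earlier search of these same libraries had picked out, one from genes that rose (CTGATTA and TGATTAA, which overlap by all but 1 base) and one from genes that fell (CAAGTGT and AAGTGTA, likewise). Of the 198 tested genes whose UTR is of like length (a ratio of at least 0.8 between the shorter and the longer), 52% hold a word of the first pair and 70.7% one of the second. The sites of Tet1 are shown because it is the single member that passed; capitals mark the word, the sequence is that of the transcript (minus strand of mm10), and the intervals are chr10:62811285-62811313, chr10:62809297-62809325, chr10:62807453-62807481, chr10:62807527-62807555, chr10:62807351-62807379 and chr10:62809136-62809164 in the order given.
Tet1 CTGATTA, UTR base 1230: aaatcagcatcCTGATTActttgtgttcc
Tet1 CTGATTA, UTR base 3218: acctactacttCTGATTAtcatttcacaa
Tet1 CTGATTA, UTR base 5062: tgcaaatatatCTGATTAgttccagtttt
Tet1 TGATTAA, UTR base 4988: agatttccttaTGATTAAaaatcttctgt
Tet1 CAAGTGT, UTR base 5164: catgcttggctCAAGTGTgtgtgatccca
Tet1 AAGTGTA, UTR base 3379: gccaaacaagtAAGTGTAtgcaaccttaa
A match describes the letters in the annotated transcript and is not evidence that a site is used.

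Of the 8 Polycomb genes, 0 passed in edgeR, 2 were lower at an unadjusted p under 0.05, and 1, Bmi1, was lower in DESeq2. Bmi1, a subunit of Polycomb repressive complex 1 and a known self-renewal factor (chr2:18677018-18686629, plus strand), had 74.7, 76.3 and 72.2 CPM with the control hairpin and 64.7, 65.3 and 57.9 CPM with shSamd14. All shSamd14 libraries lay below all control libraries. The means were 74.4 ± 2.1 and 62.6 ± 4.08 CPM, with a log2 ratio of -0.25 ± 0.066 (SE; edgeR quasi-likelihood, adjusted p 0.0653 and 0.0459 in DESeq2). In edgeR Bmi1 also missed the threshold in all 6 fits that dropped a library (adjusted p 0.0827 to 0.187). Suz12, a core subunit of the methylating complex PRC2, had 325 ± 16.8 and 292 ± 15.1 CPM, a log2 ratio of -0.15 ± 0.065 (SE; edgeR quasi-likelihood, adjusted p 0.279). Ezh2, its main catalytic subunit and the highest of the 8 in TPM, had 181, 183 and 175 CPM with the control hairpin and 176, 185 and 163 CPM with shSamd14. Ezh1, the alternative catalytic subunit and the lowest, had 24.7, 21.9 and 25.3 CPM with the control hairpin and 21.1, 21.3 and 23.1 CPM with shSamd14. The groups overlap for both. Eed, which binds the mark, had 111 ± 4.51 and 105 ± 5.53 CPM. Among the ubiquitin ligases, Rnf2 had 64.9 ± 1.9 and 65.2 ± 2.95 CPM. Ring1, among the 3 smallest p of members with a positive log2 ratio, had 15.1, 17.1 and 17.7 CPM with the control hairpin and 19.96, 17.4 and 17.97 CPM with shSamd14, overlapping groups and a log2 ratio of 0.14 ± 0.095 (SE; edgeR quasi-likelihood, adjusted p 0.53). Asxl1, a cofactor of the enzyme that removes the Polycomb ubiquitin mark, had 149 ± 12.3 and 154 ± 10 CPM.

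The UTR of Bmi1, 2148 bases long, holds CAAGTGT and AAGTGTA joined into 1 site of 8 bases, as does that of Hdac2, a deacetylase gene with overlapping groups. Of the UTRs of like length, 27.9% hold a word of this pair in either case. Both sites are shown because they carry the same 8 bases beside different values; they lie on the plus strand at chr2:18685584-18685613 (Bmi1) and chr10:36994749-36994778 (Hdac2).
Bmi1 site: tgtatgtggcaCAAGTGTAatttcaaattt
Hdac2 site: ggaaagaagccCAAGTGTAaatgtgtaagg
Over all members, 10 of 45 (22.2%) hold a word of the first pair and 13 (28.9%) one of the second, against 14.9% and 22.8% of 11870 tested genes with a UTR; the members' UTRs have a median of 1934 bases and those of all tested genes 1375. The 8 members with the first pair alone had a median log2 fold change of 0.029, the 11 with the second pair alone 0.007, the 2 with both (Tet1 and Nsd1) -0.416 and the 24 with neither 0.005. Over all tested genes these medians were 0.044, -0.036, -0.020 and 0.014. Since the words were picked from genes that rose or fell in these same libraries, the medians over all genes partly restate that choice.

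The histone methyltransferases formed the largest group, and 0 of 11 passed in edgeR and 0 in DESeq2, with 1, Kmt2c, lower at an unadjusted p under 0.05. Kmt2c, which methylates histones at enhancers, had 121, 109 and 103 CPM with the control hairpin and 95.2, 98.9 and 102.5 CPM with shSamd14. The groups did not overlap, but control replicate 3 and shSamd14 replicate 3 were nearly equal. The log2 ratio came to -0.17 ± 0.068 (SE; edgeR quasi-likelihood, adjusted p 0.24). Its relative Kmt2d had 83.8 ± 3.62 and 84.2 ± 13.6 CPM, with 72.9 CPM in shSamd14 replicate 2 and 99.4 CPM in replicate 3. The promoter methyltransferases Kmt2a and Kmt2b had 86.6 ± 3.23 and 92.7 ± 9.29 CPM, and 80.9 ± 7.69 and 81.0 ± 6.25 CPM. Setd1a had 113.5 ± 9.38 and 115 ± 7.83 CPM (SD, n = 3 each). Setd1b, the lowest of the 11 in TPM, had 27.7, 29.8 and 25.6 CPM with the control hairpin and 29.6, 27.7 and 32.5 CPM with shSamd14, and its groups overlap. Setd2, which methylates histones in gene bodies, had 153 ± 14.8 and 147 ± 6.74 CPM, and Nsd1 173 ± 13.7 and 160.3 ± 5.61 CPM. Dot1l, an enzyme tied to transcription elongation, had 124 ± 5.75 and 130 ± 3.55 CPM. The repressive pair Ehmt1 and Ehmt2 had 67.9 ± 2.34 and 71.7 ± 1.29 CPM for the former, and 113, 118 and 116 CPM with the control hairpin and 124, 114 and 127 CPM with shSamd14 for the latter, the highest of the 11 in TPM, with groups that overlap. All 11 log2 fold changes lay between -0.17 and 0.11.

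Among the 7 histone demethylases, 0 passed in edgeR, 1 was higher and 1 lower at an unadjusted p under 0.05, and Kdm5b alone was higher in DESeq2. Kdm5b, which removes methyl marks of active promoters (chr1:134560171-134635285, plus strand), had 83.4, 69.8 and 68.2 CPM with the control hairpin and 87.7, 94.0 and 90.3 CPM with shSamd14. It was the only member with all shSamd14 libraries above all control libraries, and control replicate 1 lay close to the shSamd14 group. The means were 73.8 ± 8.38 and 90.7 ± 3.16 CPM, with a log2 ratio of 0.30 ± 0.076 (SE; edgeR quasi-likelihood, adjusted p 0.0538 and 0.0218 in DESeq2). Without control replicate 1 the adjusted p in edgeR was 0.0137 (log2 fold change 0.39), and in the 5 other fits with 1 library left out it lay above the threshold, up to 0.206. The UTR of Kdm5b holds CTGATTA once, on the plus strand at chr1:134631627-134631655, shown because Kdm5b had the smallest p among members with a higher mean; 31.5% of UTRs of like length hold a word of that pair.
Kdm5b site: aggggtctctaCTGATTAcgaaggtattg
Kdm6b, which removes the Polycomb methyl mark, had 54.6, 48.7 and 53.0 CPM with the control hairpin and 48.2, 42.9 and 45.2 CPM with shSamd14. Its groups did not overlap, and the log2 ratio came to -0.20 ± 0.071 (SE; edgeR quasi-likelihood, adjusted p 0.189). Kdm1a, the catalytic partner of the corepressor CoREST, had the lowest coefficient of variation of the members in the control group, and the highest TPM of the 7. It had 102, 97.9 and 98.4 CPM with the control hairpin and 100.2, 102 and 97.9 CPM with shSamd14, and the groups overlap. Kdm5a, the closest relative of Kdm5b, had 129 ± 9.59 and 127 ± 4.71 CPM. Kdm4a had 111.5 ± 3.87 and 112 ± 6.32, Kdm2a 111 ± 5 and 105 ± 2.67, and Kdm2b 82.2 ± 5.46 and 87.4 ± 1.69 CPM.

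Of the 5 acetyltransferases, 0 passed in edgeR and 0 in DESeq2, with 1, Kat2b, lower at an unadjusted p under 0.05. Kat2b, an acetyltransferase of the SAGA and related complexes also known as PCAF (chr17:53566861-53672720, plus strand), had 28.0, 24.9 and 26.6 CPM with the control hairpin and 19.0, 23.1 and 20.7 CPM with shSamd14. All shSamd14 libraries lay below all control libraries. The means were 26.5 ± 1.53 and 20.96 ± 2.03 CPM, a ratio of 0.791, with a log2 ratio of -0.34 ± 0.089 (SE; edgeR quasi-likelihood, adjusted p 0.0624). Its UTR of 1852 bases holds none of the 4 words. Kat2a, its close relative and the highest of the 5 in TPM, had 79.1, 85.1 and 73.9 CPM with the control hairpin and 85.8, 86.4 and 84.0 CPM with shSamd14, a log2 ratio of 0.11 ± 0.065 (SE; edgeR quasi-likelihood, adjusted p 0.487), and its groups overlap. The coactivators Ep300 and Crebbp had 109.8 ± 6.84 and 117 ± 9.65 CPM (SD, n = 3 each) for the former, and 26.2, 24.8 and 24.4 CPM with the control hairpin and 25.4, 25.1 and 26.3 CPM with shSamd14 for the latter, the lowest of the 5, whose groups overlap. Kat6a, a progenitor acetyltransferase, had 107 ± 8.15 and 97.8 ± 3.16 CPM.

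The deacetylase genes Hdac1 and Hdac2 had the highest TPM of the members, while Dnmt1, Suz12 and Uhrf1 lay above them in CPM. Of the 7 deacetylases, 0 passed in edgeR, 0 at an unadjusted p under 0.05 and 0 in DESeq2. Hdac1 had 208, 227 and 216 CPM with the control hairpin and 211, 208 and 197 CPM with shSamd14, and the groups overlap. Hdac2 had 187.5 ± 7.08 and 179 ± 13.6 CPM, and Hdac3, the deacetylase of the NCoR complexes, 91.7 ± 3.91 and 96.4 ± 1.02 CPM. Among the deacetylases that shuttle between nucleus and cytoplasm, Hdac4 and Hdac5 were lower in level, while Hdac7 lay near Hdac3 in CPM. Hdac4, the lowest of the 7 in TPM, had 24.4, 21.2 and 19.4 CPM with the control hairpin and 18.7, 18.9 and 21.8 CPM with shSamd14, with groups that overlap. Hdac5 had 24.4 ± 2.66 and 25.7 ± 3.29 CPM (SD, n = 3 each), and Hdac7 91.0 ± 10.3 and 95.6 ± 7.16 CPM. Sirt1, an NAD-dependent deacetylase, had 49.4 ± 1.56 and 48.0 ± 2.06 CPM. In the annotation 22.4% of the exon bases of Hdac4 are shared with a gene on the opposite strand, Gm26720, and the use of strand in counting is not given in the sources used here, so its value is less certain.

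Summed by role, the levels of the 2 groups overlapped in every case. The 4 DNA methylation genes summed to 308 ± 12.2 TPM in control and 320 ± 14.1 TPM in shSamd14 libraries (SD, n = 3 each), the 3 Tet genes to 26.1 ± 2.77 and 23.0 ± 1.82 TPM, and the 8 Polycomb genes to 476 ± 26 and 454 ± 18.4 TPM. Methyltransferases summed to 259 ± 20 and 261 ± 18.6 TPM, demethylases to 232 ± 16.5 and 234 ± 10.2 TPM, acetyltransferases to 98.4 ± 7.26 and 100.1 ± 5.33 TPM, and deacetylases to 493 ± 16.9 and 485 ± 8.38 TPM. All 45 genes together summed to 1892 ± 94.3 and 1877 ± 51.2 TPM.

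Many of these enzymes come as pairs of close relatives, and the share of each pair's summed TPM held by one of them shows which transcript was the more abundant. Ezh2 held 92.9 ± 0.63% of the Ezh2 and Ezh1 sum in control libraries (SD, n = 3), Setd1a 82.0 ± 0.1% with Setd1b, Kat2a 82.0 ± 1.47% with Kat2b, and Ep300 78.9 ± 0.45% with Crebbp. Rnf2 held 72.2 ± 1.24% with Ring1 and Ehmt2 66.9 ± 0.17% with Ehmt1. Kmt2a held 33.2 ± 1.1% with Kmt2b, and Kmt2d 29.7 ± 4.01% with Kmt2c. The transcript length estimated for Kmt2d varied 1.28-fold between libraries, so its share carries that variation. Other pairs were nearly balanced: Hdac1 held 53.5 ± 0.78% with Hdac2, Dnmt3a 55.3 ± 4.79% with Dnmt3b, Kdm5a 48.7 ± 1.36% with Kdm5b and Kdm2a 45.8 ± 1.22% with Kdm2b.

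In 4 of the 12 pairs the shSamd14 libraries lay wholly to one side of the control libraries. Shares were not computed for pairs of other genes, so this count has no background to be set beside it. The share of Kat2a was 81.3, 83.7 and 81.1% in control and 87.4, 85.2 and 86.2% in shSamd14 libraries, a difference in means of 4.22 percentage points. That of Kdm5a was 47.3, 50 and 48.8% against 43.0, 43.3 and 43.8%, a difference of -5.30 points. Kdm2a held 46.9, 44.5 and 46.0% against 40.5, 42.2 and 43.8%, a difference of -3.63 points, and Setd1a differed by -1.53 points. Each of these 4 had an exact two-sided permutation p of 0.1, the smallest that 3 libraries against 3 can give, and an adjusted p of 0.3 over the 12 pairs, so the design cannot place them past 0.05. The Kat2 and Kdm5 shares restate the values of Kat2b and Kdm5b given above. Reads that fit both relatives are divided by estimate, so a share also carries that division.

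**Figure D3:**
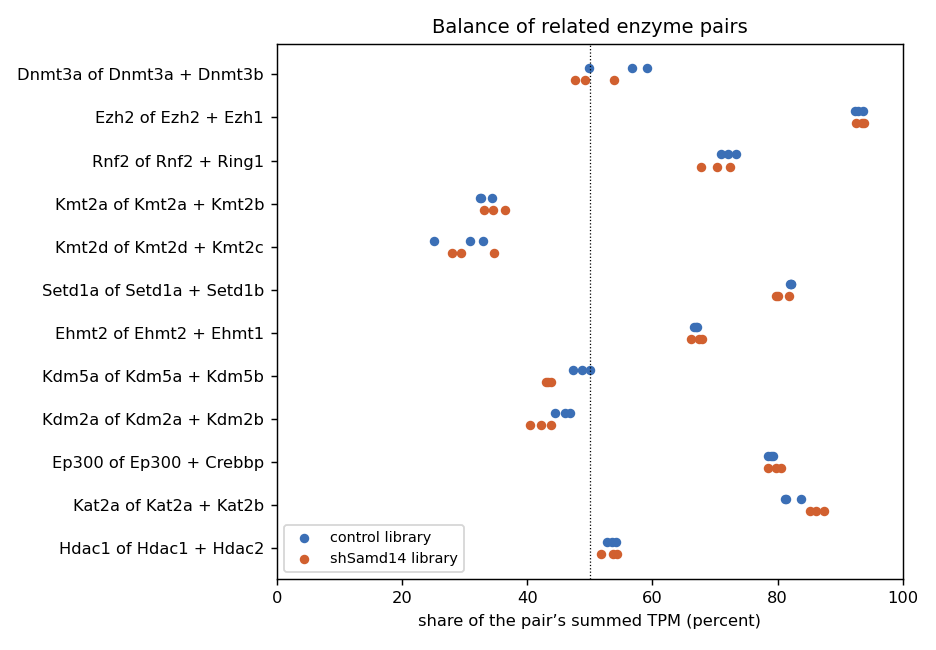
Share of the pair's summed TPM (percent) held by the first-named gene in each of the 3 control and 3 shSamd14 libraries, 1 point per library; the dotted line marks equal shares. Kat2a lies higher and Kdm5a, Kdm2a and Setd1a lie lower in all shSamd14 libraries; Ezh2 holds the highest share in both groups.

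Other subunits and enzymes of the same classes were read from the same fit. Of 139 such genes, 136 were tested; Dnmt3l and Hdac9 did not pass the filter on low counts and Prmt1 had no ID under that symbol. In edgeR 3 rose, 2 fell and the rest did not pass, or 3.68% called beside the 2.58% of all genes, and the groups did not overlap for 28 (20.6%, beside 20.7% of all genes). Their median log2 fold change was 0.015. By class, 1 of 25 Polycomb partners and 2 of 29 methyltransferases and their partners rose, and 1 of 22 demethylases and partners and 1 of 31 deacetylases and partners fell. None of the 9 DNA methylation partners or the 20 acetyltransferases and partners passed in edgeR, with 0 of the former and 3 of the latter at an unadjusted p under 0.05 and 0 of either in DESeq2.

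The genes that rose encode 2 subunits of histone methyltransferase complexes and a PRC2 accessory protein. Paxip1, a subunit of the Kmt2c and Kmt2d complexes, rose from 78.3, 76.5 and 71.1 CPM to 101.1, 96.6 and 92.0 CPM, a log2 ratio of 0.36 ± 0.064 (SE; edgeR quasi-likelihood, adjusted p 0.00806), and passed in all 6 fits that dropped a library. Dpy30, a subunit shared by all Kmt2 and Setd1 complexes, rose from 39.99, 45.03 and 43.1 CPM to 57.3, 57.5 and 51.1 CPM (log2 ratio of 0.37 ± 0.073, SE; edgeR quasi-likelihood, adjusted p 0.0135). Without control replicate 1, shSamd14 replicate 1 or shSamd14 replicate 2 its adjusted p was 0.0752, 0.0502 and 0.0958. Phf19, a Polycomb-like protein that brings PRC2 to chromatin, rose from 19.1, 20.9 and 19.6 CPM to 24.6, 25.7 and 25.0 CPM (log2 ratio of 0.34 ± 0.079, SE; edgeR quasi-likelihood, adjusted p 0.0329), and it missed the threshold in all 6 fits that dropped a library (0.05 to 0.158). For all 3 genes the groups are separate.

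The genes that fell were Arid4a and Jmjd1c. Arid4a, a subunit of the Sin3 deacetylase complex, fell from 57.8, 55.7 and 55.2 CPM to 42.8, 43.7 and 43.2 CPM, a log2 ratio of -0.38 ± 0.062 (SE; edgeR quasi-likelihood, adjusted p 0.0044), and passed with each library left out. Its relative Arid4b had 69.9 ± 6.78 and 58.0 ± 2 CPM, a log2 ratio of -0.27 ± 0.074 (SE), which missed the threshold (edgeR quasi-likelihood, adjusted p 0.0754) though the groups are separate. Jmjd1c, a member of the Kdm3 family of demethylases, fell from 173, 155 and 143 CPM to 119, 127 and 126 CPM (log2 ratio of -0.34 ± 0.07, SE; edgeR quasi-likelihood, adjusted p 0.0175). Its adjusted p was 0.0816 without control replicate 1 and 0.08 without shSamd14 replicate 2. Members of the same complexes as these genes, such as Kmt2c and Kmt2d with Paxip1 or Hdac1 with Arid4a, did not pass. Of these, Kmt2c was lower in shSamd14 at an unadjusted p under 0.05 in edgeR (log2 ratio -0.17), opposite in direction to Paxip1. Suz12, a core subunit of PRC2, was likewise lower at that unadjusted p (log2 ratio -0.15) and did not pass, opposite in direction to Phf19.

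**Figure D4:**
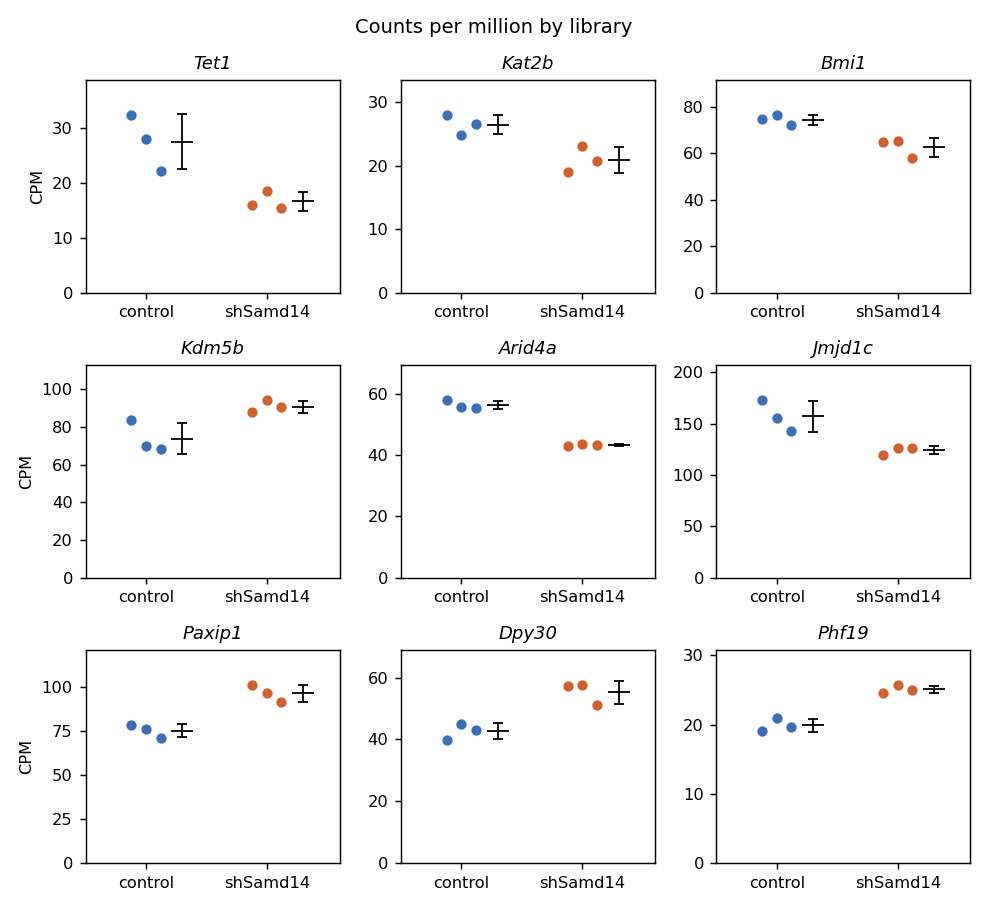
CPM of 4 enzyme genes (Tet1, Kat2b, Bmi1, Kdm5b) and the 5 partner genes that passed (Arid4a, Jmjd1c, Paxip1, Dpy30, Phf19) in each library; coloured points are libraries and black bars the mean with the SD of 3 libraries, on axes that start at 0. In each panel the shSamd14 libraries lie wholly to one side of the control libraries; Arid4a has the narrowest shSamd14 group, at 42.8 to 43.7 CPM.

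The UTR words differed among these partner genes. Paxip1 (2408 bases) holds CTGATTA and TGATTAA joined into 8 bases, on the minus strand at chr5:27742238-27742267, and a further TGATTAA; 20.8% of UTRs of like length hold a word of that pair. Jmjd1c (789 bases) holds CAAGTGT and AAGTGTA joined, on the plus strand at chr10:67255821-67255850, and a further CAAGTGT; 12.2% of UTRs of like length hold a word of that pair. Arid4a (988 bases) holds 1 CAAGTGT, on the plus strand at chr12:71097915-71097943, and 2 AAGTGTA, against 15.3% of UTRs of like length with any. The UTRs of Dpy30 (281 bases) and Phf19 (1962 bases) hold none. The first site of each gene is shown because these 3 genes passed the test and hold words.
Paxip1 site: cattaagtcttCTGATTAAtttgccaggtt
Jmjd1c site: atattgttgatCAAGTGTAaatgtgctgtt
Arid4a site: aataaagctttCAAGTGTtctagaaatca
The words were picked from genes that rose or fell in these same libraries, and Paxip1, Jmjd1c and Arid4a are shown because they passed in them. A match between word pair and direction thus partly restates that choice. The same limit applies to the sites of Tet1, Bmi1 and Kdm5b shown above. The part of these sites in the values was not tested.

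As a feature that the choice of genes did not use, the promoters of the enzymes were counted for CG dinucleotides. RefSeq promoters (GRCm38.p6, 250 bases before to 50 after the start) matched 36 of the 45 members. They held 11 to 57 CG with a median of 32.5, taking the promoter with most where a gene has several, against a median of 22 over 9755 tested genes. Tet2 had the most, 57, more than 99.7% of tested genes. Tet1, which fell, and Kdm5b, which did not pass, both had 17, more than 32.1% of tested genes.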

How the data were processed

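Polyadenylated RNA of 6 libraries was measured. The build was mm10, and the tools were RSEM 1.2.15, CASAVA 1.8.2 and Bowtie 1.0.1, per the submitters' processing notes. Not given in the sources used here are their settings, the annotation release and whether counting used strand. The deposited RSEM tables hold expected counts (reads that fit several genes are divided by estimate), TPM and FPKM, per the file headers. FPKM, as deposited, was read only to check the ranking.

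IDs were paired with GENCODE M21 symbols (23580 of 24376). Expected counts were rounded and tested with edgeR 4.0.16 (R 4.3.3): filterByExpr (minimum count 10, total 15), TMM factors (0.986 to 1.021), robust two-sided quasi-likelihood test of shSamd14 against control, Benjamini-Hochberg adjustment over 12670 genes, threshold 0.05; the fit was tested on simulated data. Standard errors (SE) were obtained by dividing the size of the log2 ratio by the square root of F. CPM are TMM-scaled. Pair shares used exact permutation tests (SciPy 1.17.1). For UTR words, each gene's longest 3′ UTR was read (M21, at least 50 bases). Alternatives were RLE factors, other filters, a replicate block, DESeq2 1.42.0, limma 3.58.1 on log2 TPM, a threshold of 0.01, and leaving out each library. Within groups, libraries differed by more than counting noise (chi-square of 5.74 to 12.3 per gene), so none was treated as 1 library deposited again; separate preparations of 1 RNA could differ as much.

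The members, lists and words were chosen with earlier results of these data known. All members may be named. Per-library values were given for members past the threshold, for the 3 members of smallest p in each direction and for the highest and lowest member of each role by TPM. Beyond this rule they are given for Dnmt1 and Kmt2c, chosen after their values were seen. Partner genes were named when past the threshold, or among the 3 of smallest p in a direction with fewer (Arid4b); other genes named were chosen after their values were seen. The RNA quality of the libraries was not analysed here.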

Additional observations from a re-analysis of the deposited data

How the results depend on the processing

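Tet1 was the 1 member called with all libraries. The count was 1 of 45 (2.22%) with RLE factors or a filter of 1 CPM in 3 libraries, beside 2.6% and 2.81% of all genes tested. It was 4 (8.89%) without a filter on low counts (Tet1, Bmi1, Kat2b and Kdm5b), beside 2.74% of 17832 genes. With DESeq2 it was 3 (6.67%), beside 3.58%. It was 0 with limma on log2(TPM + 1) or log2(TPM + 0.1), beside 1.47% and 1.49%, and 0 at an adjusted p under 0.01, beside 0.821%. Leaving out 1 library gave 0 to 2 members (up to 4.44%) and 2 to 5 partner genes (1.45 to 3.65%, and 5 with all libraries). It gave 128 to 283 genes in all (0.998 to 2.22% of those tested, and 327 with all libraries). Of these, control replicate 1 (153) and shSamd14 replicate 2 (128) moved the count of all genes most. With limma 168 genes (pseudocount 1) or 170 genes (pseudocount 0.1) and 2 partner genes (1.47% of 136) passed, Dpy30 and Paxip1. At an adjusted p under 0.01, 104 genes and 2 partner genes (1.47%) did. Without a filter 488 genes passed, and with DESeq2 415.

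The labels give both groups the replicate numbers 1 to 3. Nothing says that a number marks a shared animal or day, so the numbers were not taken as pairs. Deviations of same-numbered libraries correlated at -0.0723, 0.153 and 0.272, and those of differently numbered libraries at -0.289 to 0.177. The neutrophil markers were highest in replicate 3 of both groups, with Mpo at 2188 and 2388 CPM. These values do not decide whether a number marks a shared batch. With the replicate block, 682 genes (5.38% of 12670), 4 members (8.89%, the same 4 as without a filter) and 6 partner genes (4.41%) passed. No log2 ratio of the genes recomputed (listed here as Samd14, the 12 members given with a standard error, and the partner genes named) turned its sign in any alternative. The standard errors of the 45 log2 ratios ran from 0.057 to 0.13, which limits what 3 libraries a group can show.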
